A study of Mus musculus with 31 samples.

Results

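Kap, Slco1a1, Acsm3 and Odc1 are 4 genes whose messages depend on androgen in the mouse kidney. They were taken by symbol from a table of 55487 genes, and all 4 passed the filter on low counts that left 19268 genes for testing. The kidneys came from male mice on the B6 background of the wild-type genotype (WT) or the Nbl1 genotype labelled HET. Both genotypes received cisplatin, a platinum drug that damages the kidney tubule, or phosphate-buffered saline (PBS), for 4 weeks from 8 weeks of age. Kidneys were taken 3 days after treatment at a stated age of 11 weeks, which is younger than 8 weeks plus 4 weeks would give. The 31 libraries, each from its own numbered animal, comprised 8 WT and 7 HET kidneys after PBS and 8 kidneys of each genotype after cisplatin, and the groups are called by genotype and treatment, as in WT PBS. Neither the dose of cisplatin nor what was changed at Nbl1 is stated in the labels, and no hormone level, castration or female kidney is part of these groups.

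Testosterone and its reduced form dihydrotestosterone are the androgens that act on the male kidney, and they change which genes its cells transcribe. In the mouse kidney the main target cell is the proximal tubule cell, the cell that takes most filtered solutes back from the urine, and male kidneys hold more of many transporters and enzymes than female kidneys. Kap, the kidney androgen-regulated protein, is a classic male message of this segment. Slco1a1 is an organic anion transporter of the tubule cell membrane. Acsm3 is a mitochondrial enzyme that joins medium-chain fatty acids to coenzyme A. Odc1 is ornithine decarboxylase, the enzyme that makes putrescine and so starts polyamine synthesis.

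The PBS libraries held 29.23 to 37.3 units of 1e6 counts in total and the cisplatin libraries 24.65 to 31.91. Levels are given in CPM, the counts per 1e6 of the TMM-scaled library total. Nbl1, the targeted gene, held 3.71 to 7.9 CPM in the WT kidneys and 0.106 to 4.2 CPM in the HET kidneys given PBS. After cisplatin it held 10.7 to 26.2 CPM in WT and 0.861 to 13.9 CPM in HET. The libraries labelled HET PBS 1 and 6 and HET cisplatin 3 and 4 held far less Nbl1 than the rest of their groups, and the library labelled WT PBS 6 held a level inside the HET PBS range, so these 5 go against their genotype label. Under cisplatin the genotypes also overlapped, with HET cisplatin 7 and 8 at 10.8 and 13.9 CPM and WT cisplatin 6 at 10.7 CPM. Results keep the labels, and values without the 5, or without all 8, are given where they change a direction or a call. All 18 proximal tubule genes of a fixed list were detected, and none was at 0 in any group. Their summed level was 26692 to 30588 CPM in WT PBS and 27403 to 30890 CPM in HET PBS, against 3379 to 11799 CPM in WT cisplatin and 3191 to 11246 CPM in HET cisplatin. In WT, 7 genes of the thick ascending limb and distal tubule summed to 5556 to 6415 CPM under PBS. Under cisplatin they summed to 1928 to 3796 CPM. In the same order, 8 collecting duct genes summed to 348 to 440 CPM and 346 to 502 CPM in WT. In HET, 5 podocyte genes summed to 338 to 407 CPM and 343 to 391 CPM. Single genes of these last lists were called in both directions. Of the collecting duct genes, 4 were higher and 2 lower in WT, and 3 and 2 in HET. Of the podocyte genes, 2 were higher and 2 lower in WT, and 2 and 1 in HET. With library totals in place of TMM scaling, 6 collecting duct and 4 podocyte genes were higher in each genotype. Then 2 and 1 were lower in WT, and 1 and 0 in HET. All 5 endothelial genes of a list fell in both genotypes, from a sum of 309 to 361 CPM to 194 to 232 CPM in WT. Beside them, 29.6% of all tested genes were called lower in WT and 28% in HET. Scaled by library totals alone, 3 endothelial genes were called lower against 1 higher for WT. For HET the split was then 2 against 2, so the direction of this list depends on the scaling. Of 6 macrophage genes, 5 rose in WT and 4 in HET while 1 fell in each. Their WT sums were 72.9 to 85.4 CPM under PBS and 73.9 to 136 CPM under cisplatin. The part of these markers in the results was not tested. All 7 tubular injury genes of a list rose in both genotypes, from a sum of 514 to 778 CPM to one of 6053 to 7752 CPM in WT.

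The 250 bases before each gene's start, from RefSeq on GRCm38.p6, are shown so that the sequences in front of the 4 genes, which all fell after cisplatin, can be compared. All 4 symbols matched the table. Each is printed 5′ to 3′ on the strand of its gene, with the TATA box letters TATAAA, or TTTATA where they read on the other strand, in capitals. The windows are chr6:133853668-133853917 (minus strand), chr6:141946963-141947212 (minus strand), chr7:119760673-119760922 (plus strand) and chr12:17544623-17544872 (plus strand).
Kap: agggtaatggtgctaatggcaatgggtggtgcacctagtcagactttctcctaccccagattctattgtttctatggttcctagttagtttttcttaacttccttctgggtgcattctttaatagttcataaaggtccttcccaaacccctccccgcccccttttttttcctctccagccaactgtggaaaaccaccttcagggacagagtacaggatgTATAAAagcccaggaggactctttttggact
Slco1a1: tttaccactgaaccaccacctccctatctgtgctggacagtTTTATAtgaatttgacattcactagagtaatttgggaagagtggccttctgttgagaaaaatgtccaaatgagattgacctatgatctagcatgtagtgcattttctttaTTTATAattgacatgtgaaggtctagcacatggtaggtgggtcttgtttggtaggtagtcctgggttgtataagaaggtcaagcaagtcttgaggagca
Acsm3: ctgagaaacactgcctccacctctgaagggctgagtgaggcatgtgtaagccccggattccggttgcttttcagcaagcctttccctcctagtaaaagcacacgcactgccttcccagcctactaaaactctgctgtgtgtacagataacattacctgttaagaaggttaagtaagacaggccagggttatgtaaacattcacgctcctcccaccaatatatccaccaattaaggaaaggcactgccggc
Odc1: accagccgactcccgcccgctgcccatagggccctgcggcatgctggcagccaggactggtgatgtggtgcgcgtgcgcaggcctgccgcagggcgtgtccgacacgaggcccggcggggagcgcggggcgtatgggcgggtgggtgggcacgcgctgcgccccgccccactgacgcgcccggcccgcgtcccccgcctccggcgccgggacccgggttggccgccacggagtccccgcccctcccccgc

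Kap had TATAAA beginning 31 bases before its start, and Slco1a1 had TTTATA beginning 209 and 99 bases before its start. Either form stood in 12.4% of 32851 windows of the same length. The window of Odc1 was 80% G and C, against 49.2% for Acsm3, 45.6% for Kap and 40.4% for Slco1a1. The androgen response half-site TGTTCT, or AGAACA on the other strand, was in none of the 4 windows and in 16.1% of all windows. The E-box CACGTG (6.02% of all windows) and the HNF4 half-site CAAAGT, or ACTTTG on the other strand (12.6%), were also in none of the 4. The E-box reads the same on both strands, and none of the motifs overlapped in these windows. GENCODE places the outermost start of Kap 95 bases and that of Odc1 79 bases before the RefSeq start, so those last bases of both windows lie inside the longest GENCODE gene model.

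Kap (ENSMUSG00000032758, chr6:133849851-133853762 of GRCm38, minus strand, up to 4 exons) was the most abundant of the 4 per length, at 20108 ± 968 TPM (transcripts per 1e6; SD, n = 8) in WT PBS. The 8 WT PBS libraries lay between 14943 and 16050.5 CPM with a median of 15683, and the 8 WT cisplatin libraries between 226 and 473 CPM with a median of 357. In HET PBS the 7 libraries lay between 14660 and 17166 CPM with a median of 15298, and in HET cisplatin the 8 lay between 169 and 452 CPM with a median of 225. Every cisplatin kidney was below every PBS kidney of its genotype, while the 2 genotypes overlapped within each treatment. Kap fell by 5.50 on the log2 scale in WT (SE 0.186, adjusted p = 4.10e-21, edgeR's quasi-likelihood test with Benjamini-Hochberg adjustment) and by 5.88 in HET kidneys (SE 0.191, with an adjusted p of 1.93e-21). The mean CPM under cisplatin was 2.22% of the PBS mean in WT and 1.7% in HET. In WT, Kap made up 1.36% ± 0.0314 of all counts under PBS (SD, n = 8) and 0.0394% ± 0.00937 under cisplatin (SD, n = 8). In a whole kidney, fewer proximal tubule cells and less message per cell cannot be told apart.

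All 4 genes fell in both genotypes at an adjusted p under 0.05, against 29.6% of the 19268 tested genes called lower and 33.6% higher in WT, with 28% lower and 31% higher for HET. All 4 also had every cisplatin library below every PBS library in CPM, against 17.4% of tested genes in WT and 14.9% in HET. The median log2 change of the 4 was −5.97 in WT and −6.01 in HET, and that of all tested genes was 0.06 in both. With library totals in place of TMM scaling, the median of all genes became 0.45 in WT and 0.46 in HET, and the calls split into 2862 lower against 11831 higher in WT, and for HET into 2400 lower against 11992 higher. The medians of the 4 genes were then −5.58 and −5.61, so their direction did not depend on that choice. Mitochondrial transcripts, at 8.08% to 8.96% of counts in WT PBS and 2.53% to 4.98% in WT cisplatin, moved with treatment too, and their part in these falls was not tested. Ranked by the size of the fall among all tested genes, Slco1a1 stood at 8, Acsm3 at 27, Kap at 47 and Odc1 at 327 in WT, and at 6, 29, 34 and 349 in HET.

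**Figure D1:**
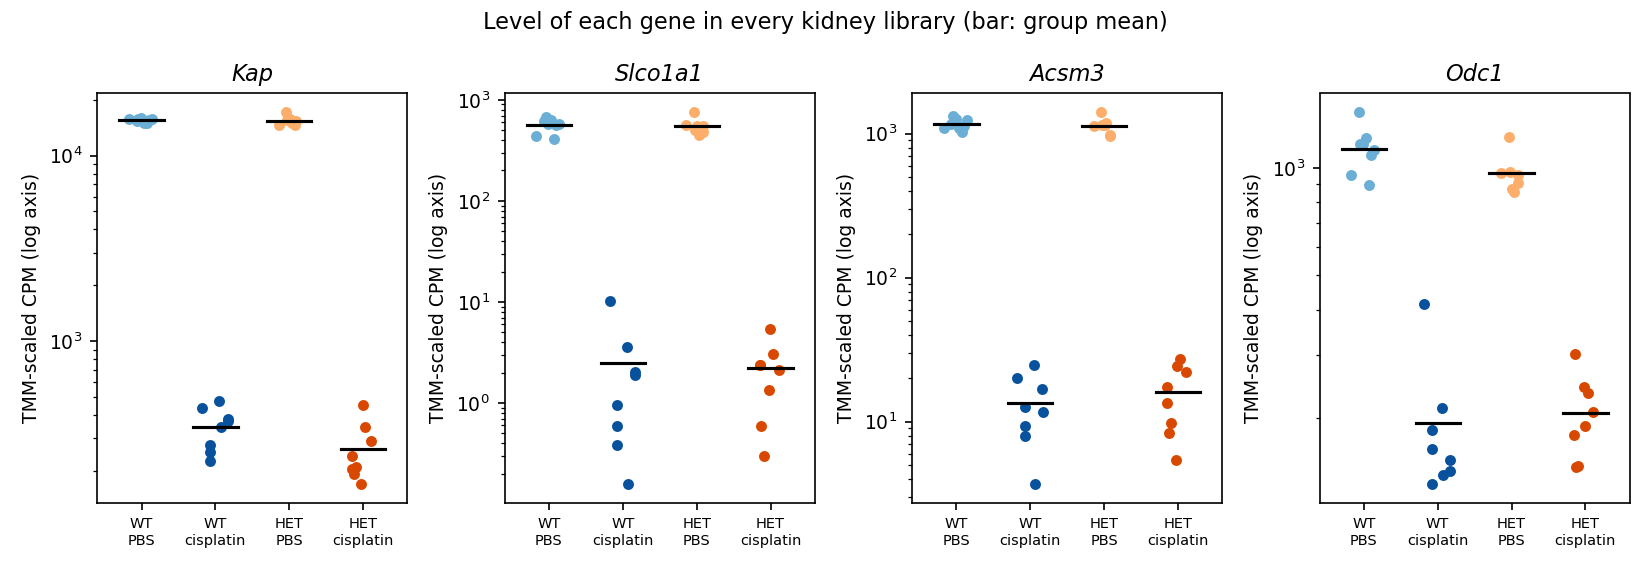
TMM-scaled CPM (log axis) of Kap, Slco1a1, Acsm3 and Odc1 in each of the 31 kidney libraries by group, with a bar at each group mean. Every cisplatin library lies below every PBS library of its genotype for all 4 genes, and the spread under cisplatin is widest for Slco1a1, from 0.157 to 10.3 CPM in WT.

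Slco1a1 (ENSMUSG00000041698, chr6:141907282-141946962 of GRCm38, minus strand, up to 15 exons) had the largest fall of the 4. Its level was 413 to 671 CPM (median 577) in WT PBS and 0.157 to 10.3 CPM (median 1.43) in WT cisplatin. In the HET groups it was 445 to 757 CPM (median 547) under PBS and 0.298 to 5.44 CPM (median 2.23) under cisplatin. The cisplatin kidneys thus held 5 to 326 counts per WT library and 11 to 170 per HET library, where PBS kidneys held 10957 or more. The log2 change of Slco1a1 was −7.81 for WT (SE 0.567, adjusted p = 3.69e-13), and for HET it was −7.98 (SE 0.575, adjusted p = 4.15e-13). The mean left was 0.444% of the PBS mean in WT and 0.398% in HET.

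WT cisplatin 6 stood above the other WT cisplatin kidneys for Slco1a1, at 10.3 CPM where the next held 3.58 CPM. Without it the WT change was −8.69, and limma voom with quality weights gave −9.14. DESeq2 with its default handling replaced the 326 counts of that library by 7652 and gave −4.17. Of the 50-base stretches of Slco1a1 transcripts, 1.64% also occur in 5 other genes, chiefly its neighbours Slco1a4, Slco1a5 and Slco1a6. Those genes together held 56.3% as many counts as Slco1a1 over all libraries. How reads of the shared stretches were assigned is not stated in the labels. Their part in the few Slco1a1 counts left under cisplatin was not tested.

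Acsm3 (ENSMUSG00000030935, chr7:119760923-119787513 of GRCm38, plus strand, up to 17 exons) had the next largest fall. WT PBS kidneys held 1019 to 1318 CPM (median 1153) and WT cisplatin kidneys 3.68 to 24.7 CPM (median 12.1). HET PBS kidneys held 958 to 1409 CPM (median 1142) and HET cisplatin kidneys 5.38 to 27.2 CPM (median 15.4). Acsm3 changed by −6.44 in WT (SE 0.338, adjusted p = 1.96e-16) and, in HET, by −6.15 (SE 0.336, adjusted p = 6.67e-16), and the mean left was 1.15% and 1.41%. Eri2 overlaps Acsm3 on the opposite strand and held 9852 counts over all 31 libraries, against 512836 for Acsm3. Acsm3 itself held only 117 to 710 counts in a WT cisplatin library, and as no strand setting of the counting is stated, reads of the 2 genes cannot be told apart where they overlap.

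Odc1 (ENSMUSG00000011179, chr12:17544794-17551505 of GRCm38, plus strand, up to 12 exons) had the smallest fall of the 4. WT PBS kidneys held 898 to 1432 CPM (median 1142) and WT cisplatin kidneys 130.2 to 416 CPM (median 158). HET PBS kidneys held 855 to 1222 CPM (median 953) and HET cisplatin kidneys 146 to 302 CPM (median 198). These levels did not overlap between treatments in either genotype. Odc1 changed by −2.55 in WT (SE 0.190, adjusted p = 6.76e-13) and, in HET, by −2.23 (SE 0.192, adjusted p = 2.12e-11), and the mean left was 17% and 21.3%. Of the 50-base stretches of Odc1 transcripts, 24.3% also occur in 15 other genes, most of them in Gm7993, Gm17709 and Gm9115, and those genes together held 0.438% as many counts as Odc1.

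By group mean, Kap and Slco1a1 ran from WT PBS down to HET PBS, then WT cisplatin, then HET cisplatin, and Acsm3 and Odc1 had HET cisplatin above WT cisplatin. Neighbours of the same treatment overlapped in all these orders, and only the step between treatments lay outside the spread. Kidneys within a group also varied more under cisplatin. In WT the coefficient of variation went from 2.73% to 25.6% for Kap, from 16.3% to 135% for Slco1a1, from 8.43% to 51.3% for Acsm3 and from 14.4% to 49% for Odc1. In HET it went from 5.55% to 36.3%, from 18.2% to 73.5%, from 13.2% to 50.2% and from 12.8% to 25.7%. Per length, the mean TPM in WT PBS was 360 ± 60.0 for Odc1, 301.5 ± 30.8 for Acsm3 and 103 ± 20.2 for Slco1a1 (SD, n = 8 each). In WT cisplatin it was 603.1 ± 149.7 for Kap, 84.1 ± 39.8 for Odc1, 5.15 ± 2.49 for Acsm3 and 0.623 ± 0.825 for Slco1a1 (SD, n = 8 each). Among animals numbered in the 600 range, to which all HET cisplatin mice belong, the log2 changes in WT and HET were −5.46 and −5.88 for Kap, −7.48 and −7.88 for Slco1a1, −6.41 and −6.12 for Acsm3, and −2.32 and −2.13 for Odc1.

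Each gene was set against 2 proximal tubule genes, Lrp2 and Slc27a2, inside each library. Lrp2 encodes megalin, the uptake receptor of the proximal tubule brush border, and Slc27a2 encodes a fatty acid transporter and acyl-CoA synthetase of the late proximal tubule. Lrp2 kept 18.1% of its PBS mean under cisplatin in WT and 23.7% in HET, and Slc27a2 kept 21.4% and 23.4%. The log2 ratio of Kap to Lrp2 changed by −2.92 in WT (95% interval −3.38 to −2.42) and by −3.73 in HET (−4.37 to −3.11). The ratio of Slco1a1 to Lrp2 changed by −6.07 in WT (−7.02 to −5.11) and −6.09 in HET (−6.91 to −5.31), and that of Acsm3 to Lrp2 by −4.01 (−4.37 to −3.64) and −4.10 (−4.95 to −3.41). Each of these 6 differences had p = 0.0001554 in a two-sided exact permutation test, or 0.0002072 after adjustment over the 16 ratios tested, and 0.0001554 is the smallest p that these group sizes allow. Every cisplatin library had a lower ratio than every PBS library in all 6. Under other settings the Slco1a1 to Lrp2 change lay between −6.34 and −3.96 in WT and between −6.75 and −4.31 in HET. Its size thus depended on the setting beyond these intervals, while its direction did not.

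For Odc1, no change of the ratio to Lrp2 was detected. The difference was −0.03 in WT (interval −0.247 to 0.223, exact permutation test, adjusted p = 0.884) and −0.04 in HET (−0.396 to 0.394, adjusted p = 0.884). Against Slc27a2, Odc1 changed by −0.31 in WT (−0.63 to 0.0097, exact permutation test, p = 0.0577, adjusted p = 0.071) and −0.05 in HET (−0.43 to 0.33, adjusted p = 0.884). The WT value passed on the deposited TPM (−0.33) and without the 8 libraries that stand apart in Nbl1 (−0.41, exact permutation test, adjusted p = 0.0251), without WT cisplatin 4 (−0.39, adjusted p = 0.0124) or WT cisplatin 6 (−0.37, adjusted p = 0.0356). Against Slc27a2, the other 3 genes changed by −3.20 and −3.74 (Kap), −6.35 and −6.10 (Slco1a1) and −4.29 and −4.11 (Acsm3) in WT and HET, with p = 0.0001554 in each exact permutation test. Under other settings the Slco1a1 value lay between −6.71 and −4.27 in WT and between −6.67 and −4.33 in HET. Other genes of the list of 18 proximal tubule genes fell more than both references, with log2 changes of −6.24 in WT and −6.15 in HET for Slc22a7 and of −4.34 and −4.13 for Acy3, an aminoacylase, both named after their values were seen. The fitted fall of Slc22a7 was larger in size than that of Kap, a difference that was not tested, and the ratios hold for the 2 references alone. A single reference gene stands for no cell number, and what lowers Lrp2 and Slc27a2 was not tested.

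**Figure D2:**
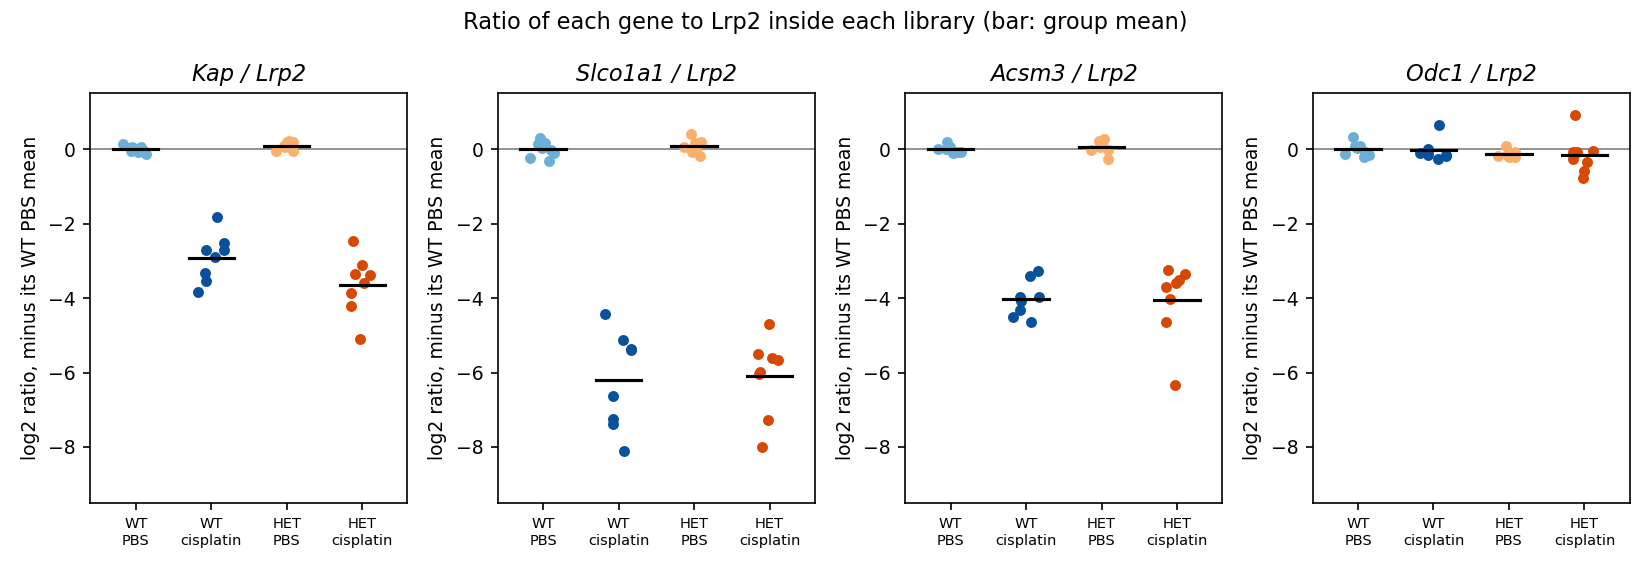
Log2 ratio of each gene to Lrp2 inside each library, shown relative to the WT PBS mean ratio of that gene, by group, with bars at group means. Kap, Slco1a1 and Acsm3 change by −2.92, −6.07 and −4.01 in WT, and the group mean of Odc1 changes by −0.03 in WT and −0.04 in HET. Single libraries spread more for Odc1 in HET cisplatin (SD 0.511) than in HET PBS (SD 0.0995).

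Among cisplatin kidneys, the level left of Odc1 went with the level left of Lrp2. In WT cisplatin, Pearson's r between the log2 levels was 0.917 over 8 libraries (exact permutation test, adjusted p = 0.00377 over 8 relations) and Spearman's rho 0.976 (exact permutation test, adjusted p = 0.00317). In HET cisplatin, r was 0.814 (exact permutation test, adjusted p = 0.0278) and rho 0.952 (adjusted p = 0.00456). Without the 2 libraries farthest from the median of Lrp2, r was 0.965 in WT and 0.855 in HET. The HET relation missed the threshold on log2(TPM + 1), with r = 0.767 (exact permutation test, adjusted p = 0.0527), and without the libraries that go against their Nbl1 label, with r = 0.806 (adjusted p = 0.0861). Both levels come from the same library and share its scaling.

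The same relation was computed for the other 3 genes. Slco1a1 had r = 0.920 in WT (rho = 0.810, exact permutation tests, adjusted p = 0.00655 and 0.0436). Without WT cisplatin 4 and 6 its r was 0.698 (exact permutation p = 0.114). That step leaves 6 libraries with a narrower range of Lrp2, so it cannot show whether the relation rests on those 2. In HET its r was 0.627 (rho = 0.5, exact permutation tests, adjusted p = 0.154 and 0.346), and 0.829 (exact permutation p = 0.0444, not adjusted) without HET cisplatin 6 and 8, the 2 farthest from the median of Lrp2. Acsm3 had r = 0.829 in WT (rho = 0.810, exact permutation tests, adjusted p = 0.0305 and 0.0436), 0.758 (exact permutation p = 0.0833) without the same 2 libraries, and 0.177 in HET (rho = 0.0952, exact permutation tests, adjusted p = 0.683 and 0.84). Kap had r = 0.402 in WT (rho = 0.333) and 0.265 in HET (rho = 0.143), with adjusted p = 0.446 and 0.607 for r in exact permutation tests. Without HET cisplatin 6 and 8 the HET values of r were 0.571 for Acsm3 and 0.562 for Kap (exact permutation p = 0.243 and 0.256). HET cisplatin 6 had opposite ranks for these genes. It held the most Lrp2 of its group, 2684 CPM, and the least Kap, 169 CPM, and the least Acsm3, 5.38 CPM, while its Odc1 of 243 CPM was the second highest. WT cisplatin 6 held the most Lrp2 of all cisplatin kidneys, 2871 CPM, with the highest Slco1a1 and Odc1 of its group.

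**Figure D3:**
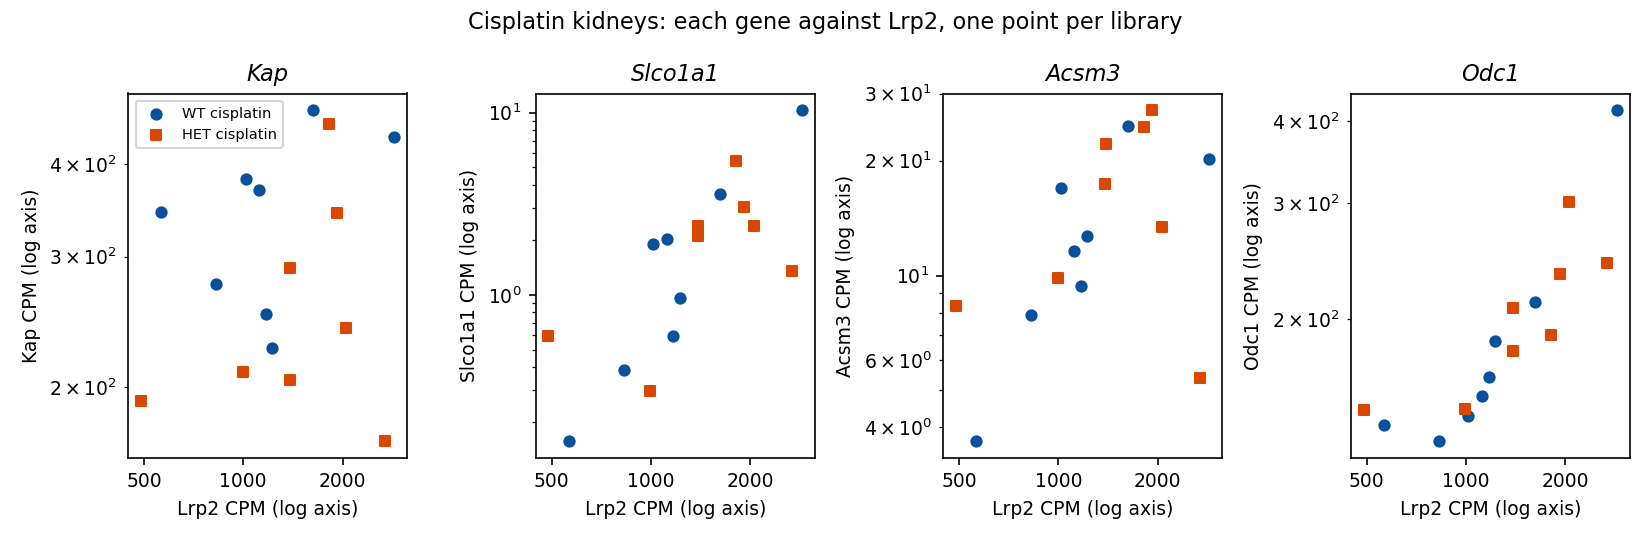
CPM of each gene against CPM of Lrp2 in the 16 cisplatin libraries, both on log axes, with circles for WT and squares for HET. Odc1 rises with Lrp2 in both genotypes (r = 0.917 and 0.814), and the HET kidney with the most Lrp2, at 2684 CPM, has the least Kap and the least Acsm3 of its group.

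The 4 genes did not share 1 profile. Likeness was measured as the root mean square difference between log2 profiles over all 31 libraries, each taken relative to its WT PBS mean, so that 0 means the same change in every kidney. Kap and Acsm3 were 0.734 apart, Slco1a1 and Acsm3 1.6, Kap and Slco1a1 2.19, Kap and Odc1 2.33, Acsm3 and Odc1 2.88, and Slco1a1 and Odc1 4.36. Of 10758 genes compared, those nearest to Kap were Fcamr (0.489), a receptor for IgM and IgA, Slc22a7 (0.584), an organic anion transporter, Acsm3, BC049987 (0.84) and Hrg (0.844), a plasma glycoprotein. Nearest to Acsm3 were Slc22a7 (0.591), Fcamr (0.685), Kap, Hrg (0.846) and Inmt (0.879), an N-methyltransferase. Nearest to Slco1a1 were Slc7a13 (0.765), a cystine and acidic amino acid transporter, Slc22a28 (1.03), Pzp (1.13), Hbb-bt (1.18) and Pde6a (1.34). Nearest to Odc1 were Proc (0.216), the gene of protein C, Idi1 (0.225), an enzyme of isoprenoid synthesis, Acss2 (0.243), an acetyl-CoA synthetase, Fut9 (0.261) and Gcnt1 (0.267), both glycosyltransferases. With a prior count of 0.5 in place of 2, 4 of the 5 nearest genes remained for Kap and Acsm3, 3 for Slco1a1 and 5 for Odc1. Hrg dropped out for Kap and Acsm3, and Pzp and Hbb-bt for Slco1a1. In WT cisplatin Hrg, Pzp and Hbb-bt held 0.0404, 0.228 and 0.293 CPM on average, levels at which the log2 profile depends on the prior count.

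Most other kidney genes known to be induced by androgen fell as well. Of 15 such genes on a list, chosen with earlier results of these data known, 13 fell, 1 rose and 1 did not pass in either genotype. Of all tested genes, 29.6% were called lower and 33.6% higher in WT, and 28% and 31% in HET. Of the 18 proximal tubule genes on another list, 17 fell and 1 did not pass in both genotypes. The median change of the 15 was −3.74 in WT and −3.68 in HET. The genes with the smallest p were Nudt19, a peroxisomal coenzyme A hydrolase (−3.67, SE 0.174 in WT and −3.79, SE 0.177 in HET), Hsd11b1, which regenerates active glucocorticoid (−2.09, SE 0.101 and −2.13, SE 0.103), and Adh1, an alcohol dehydrogenase (−1.94, SE 0.097 and −2.03, SE 0.0992). Next in WT were the cytochrome P450 genes Cyp4b1 (−3.75 and −3.73) and Cyp7b1 (−4.24 and −4.11) and, with a rise, Arg2. Slc7a13 (−7.46 and −7.40) and Slc22a28 (−7.37 and −7.37), already met as the genes nearest to Slco1a1, fell most. Gusb, β-glucuronidase, fell by 0.90 and 0.93 and was picked out after its values were seen. The gene of the 15 that did not pass, Serpina1f, had −0.16 in WT and −0.23 in HET. With library totals it passed in WT at 0.23 and had 0.17 in HET.

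Arg2, the mitochondrial arginase that supplies ornithine, the substrate of Odc1, was the exception. WT PBS kidneys held 2.8 to 8.04 CPM of Arg2 and WT cisplatin kidneys 48.5 to 90.5 CPM. The HET ranges were 4.87 to 10.7 CPM and 43.4 to 84.4 CPM. Arg2 rose in WT by 3.70 on the log2 scale (SE 0.21, adjusted p = 1.20e-15) and in HET by 2.91 (SE 0.212, adjusted p = 5.17e-13), and no cisplatin kidney overlapped a PBS kidney of its genotype.

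Genes that are known to be higher in female than in male mouse kidney moved the other way. Of 5 on the list, 4 rose in WT and 5 in HET, with a median change of 3.72 and 3.22, beside 33.6% and 31% of all tested genes called higher. Slc7a12, an amino acid transporter, had 1.64 to 3.43 CPM in WT PBS and 3.43 to 81.5 CPM in WT cisplatin, and rose by 3.72 among WT kidneys (SE 0.369, adjusted p = 3.11e-10) and 3.75 among HET kidneys (SE 0.391, adjusted p = 1.24e-09), with the lowest WT cisplatin library just inside the PBS range. Abcc3, an export pump for conjugated anions, rose by 4.19 and 3.84, Cyp4a14, a fatty acid hydroxylase, by 3.79 and 3.22, and Prlr, the prolactin receptor, by 0.78 and 0.95. For Cyp4a14 the treatments overlapped in both genotypes. WT PBS 6 held 73.5 CPM and WT cisplatin 4 held 65.2 CPM, and HET PBS 6 held 204 CPM and HET cisplatin 2 held 153 CPM. The fifth gene, Slc22a29, had 0.73 in WT (SE 0.441, adjusted p = 0.149) and rose by 1.13 in HET (adjusted p = 0.0336). With library totals it passed in WT too, at 1.11. The Y-linked genes of a check list were detected in every group, at a summed level of 180.3 to 244 CPM, so the libraries match the male label.

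**Figure D4:**
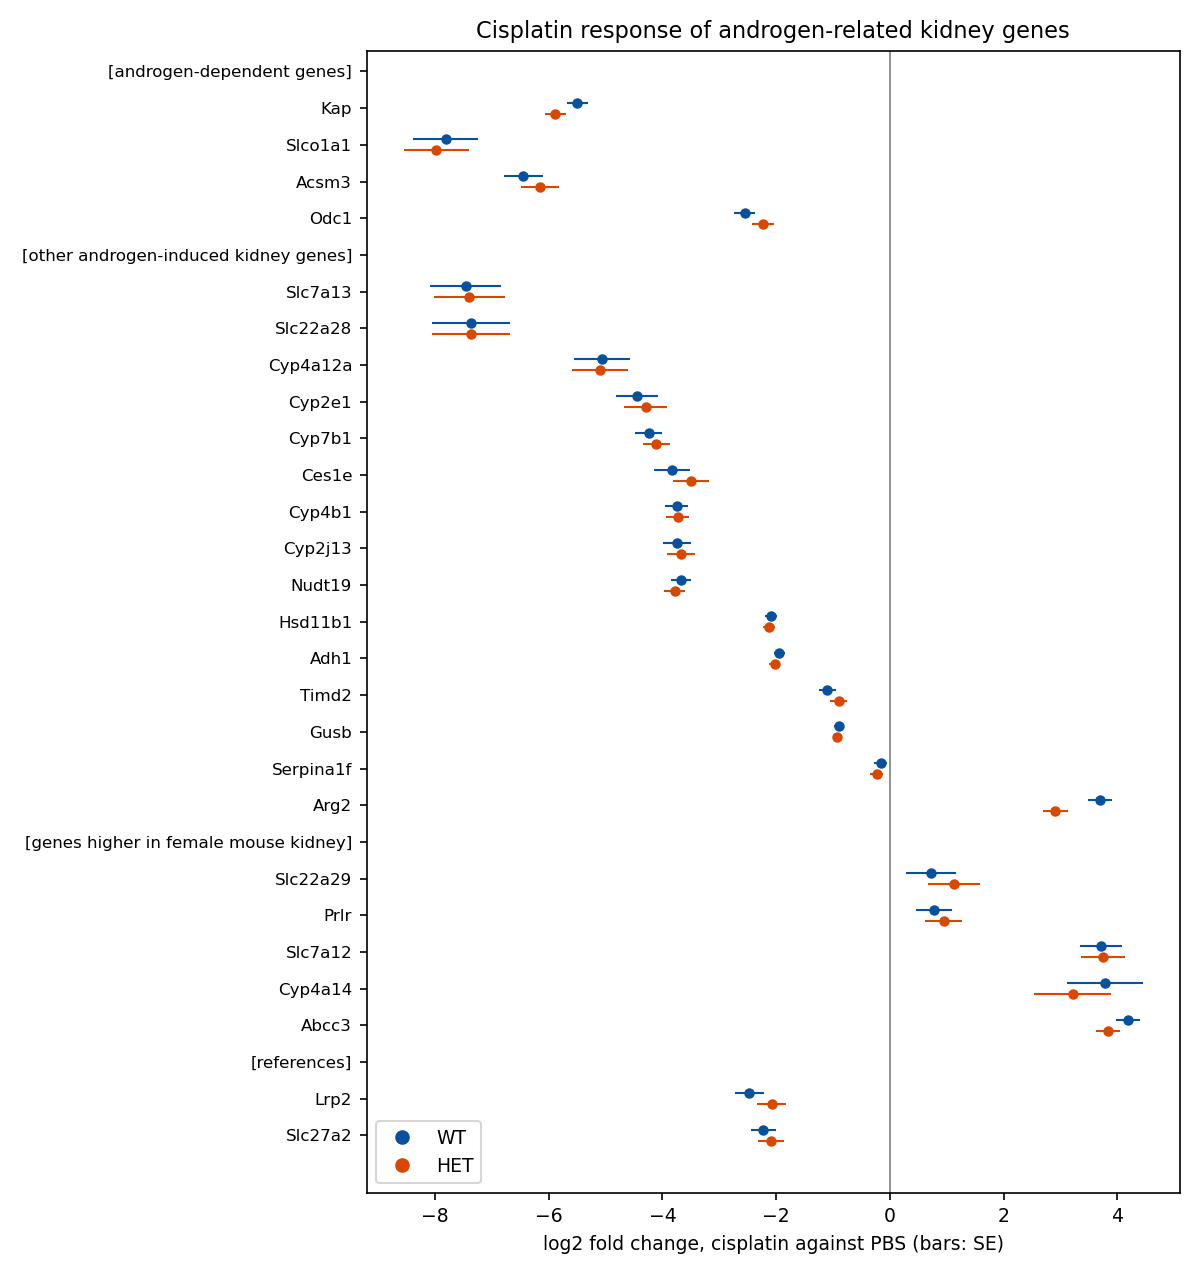
Log2 fold change of cisplatin against PBS in WT and HET, with bars of 1 SE, for the 4 androgen-dependent genes, 15 other androgen-induced kidney genes, 5 genes higher in female kidney, and the references Lrp2 and Slc27a2. Of the 15 other androgen-induced genes, 13 lie below 0 and passed in both genotypes, and Arg2 alone rose, by 3.70 and 2.91.

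Genes whose products work with steroid receptors were described from a list of 13 coregulators and chaperones. Of these, 8 fell with 4 rising in WT, and 9 fell with 3 rising in HET, with medians of −0.12 and −0.38, beside 29.6% and 28% of all tested genes called lower and 33.6% and 31% higher. With library totals these counts became 2 fallen and 7 risen in WT and 2 and 5 in HET, with medians of 0.27 and 0.02, so the direction of this list depends on the scaling. The chaperones Hsp90ab1 (−1.05 and −1.13) and Fkbp4 (−1.29 and −1.17), which hold steroid receptors ready for hormone, passed under both scalings.

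Other genes of the list had smaller values. Ncor1, a corepressor, had −0.36 and −0.41, Ncoa3, a coactivator, −0.49 and −0.48, and Ptges3, a cochaperone, −0.41 and −0.42, and none of these passed with library totals. Nrip1, a corepressor of nuclear receptors, rose by 0.27 and 0.35. Fkbp5, a cochaperone that androgen and glucocorticoid induce, is named here after its values were seen. It rose by 1.002 in WT (SE 0.247, adjusted p = 0.000735) and had −0.17 in HET (SE 0.252, adjusted p = 0.59), and the difference between the responses, −1.17 (SE 0.352, unadjusted p = 0.00232), did not pass (adjusted p = 0.725).

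Enzymes that make and break down androgens changed unequally. Of 11 genes on the list, 10 were in the table and 7 were tested, and of these 5 fell, 1 rose and 1 did not pass in both genotypes, with medians of −2.22 and −2.10 beside 0.06 for all tested genes. Among all tested genes, 29.6% were called lower and 33.6% higher in WT, and 28% and 31% in HET. Under library totals 5 of the list fell and 2 rose in both genotypes. Srd5a2, a steroid 5-alpha-reductase that makes dihydrotestosterone, fell by 2.61 on the log2 scale (SE 0.204) in WT and 2.26 in HET. Srd5a1, the other such reductase, named after its values were seen, rose by 0.81 and 0.92. Hsd17b11, a 17-beta-hydroxysteroid dehydrogenase, fell by 2.22 and 2.11, and the close copies Hsd3b2 and Hsd3b3 fell by 2.51 and 2.10 and by 1.65 and 1.27, with reads that the counting could split between them. Among 5 receptors of other hormones, Ghr, the growth hormone receptor (−1.74 and −1.70), and Esr1, the oestrogen receptor alpha (−1.91 and −1.82), fell in both genotypes. Nr3c1, the glucocorticoid receptor, had −0.27 in WT (adjusted p = 0.0141) and −0.02 in HET (adjusted p = 0.871), and its sign turned with library totals to 0.13 and 0.39. Pgr, the progesterone receptor, did not pass (0.09 and −0.21).

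Around Odc1, the polyamine genes did not move together. Of 13, 6 rose, 5 fell and 2 did not pass for WT, while for HET 5 rose, 4 fell and 4 did not pass, with a median of 0.18 in both. These shares lie near those of all tested genes, of which 33.6% were called higher and 29.6% lower in WT and 31% and 28% in HET. With library totals 9 rose and 4 fell in both genotypes. The antizymes Oaz1 (−0.82 and −0.75) and Oaz2 (−1.04 and −0.97), which bind ornithine decarboxylase and send it to the proteasome, fell, as did Sms, spermine synthase (−1.22 and −1.04). The next 3 genes are named after their values were seen: Smox, spermine oxidase, rose by 1.82 and 1.76, Azin2, an antizyme inhibitor, by 1.51 and 1.66, and Sat1, which acetylates polyamines for breakdown or export, by 0.76 and 0.63.

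Relatives of Acsm3 fell and relatives of Slco1a1 were divided. Acsm1 (−3.18 and −2.97), Acsm2 (−4.76 and −4.41) and Acsm5 (−2.94 and −2.47), the 3 tested of 4 other medium-chain acyl-CoA synthetase genes, all fell, each by less than Acsm3. Of 9 tested Slco genes, 4 fell and 5 rose in both genotypes. Calls in both directions were common, with 29.6% of all tested genes lower and 33.6% higher in WT, and 28% and 31% in HET. Slco3a1 (−1.18 and −1.27), Slco4c1 (−1.21 and −1.22) and Slco1a6 (−2.31 and −2.13) fell, and Slco2a1, a prostaglandin transporter, rose by 1.76 and 1.52. Slco1a5, one of the neighbours that share stretches with Slco1a1 and named after its values were seen, rose by 6.05 and 4.06. The tests of the differences between Acsm3 or Slco1a1 and these relatives were not run. Of the 18 proximal tubule genes, 17 fell and 1 did not pass in both genotypes, with medians of −2.14 and −1.77.

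No genotype difference in the 4 genes passed the test, and that of Nbl1 itself did not pass either. For Nbl1, HET against WT gave −1.23 under PBS (SE 0.461, edgeR's quasi-likelihood test, adjusted p = 0.778). Under cisplatin Nbl1 had −1.49 (SE 0.416, adjusted p = 0.874). A gene that missed the threshold here is thus not shown to be equal between genotypes. Under PBS, HET against WT gave −0.01 (SE 0.159) for Kap, −0.03 (SE 0.426) for Slco1a1, −0.04 (SE 0.275) for Acsm3 and −0.23 (SE 0.186) for Odc1, with adjusted p = 1 for each. Intervals of 2 SE either side ran from −0.325 to 0.311 for Kap, −0.877 to 0.825 for Slco1a1, −0.587 to 0.512 for Acsm3 and −0.602 to 0.144 for Odc1. In this comparison edgeR called 0% of the 19268 genes, 968 had an unadjusted p under 0.05, and DESeq2 called 5. Under cisplatin, Kap had −0.39 (SE 0.154, interval −0.699 to −0.0829, unadjusted p = 0.0164, adjusted p = 0.874), with HET kidneys at 169 to 452 CPM and WT kidneys at 226 to 473 CPM. Slco1a1 had −0.19 (SE 0.497), Acsm3 0.26 (SE 0.274) and Odc1 0.10 (SE 0.18), with adjusted p of 0.98, 0.928 and 0.964, where 0.00519% of genes, 1 gene, were called. Without WT cisplatin 6 the Slco1a1 value was 0.69, and DESeq2, which replaced that library's count, gave −3.84 (adjusted p = 0.1). Without the 5 libraries that go against their Nbl1 label, Kap had 0.0192 and Slco1a1 0.0183 under PBS, and Acsm3 had −0.0273 under cisplatin. Without all 8 that stand apart, Kap had −0.69 (adjusted p = 0.0637), Slco1a1 0.225 and Acsm3 −0.108 under cisplatin.

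The response to cisplatin itself was compared between genotypes as the difference of the log2 changes, HET minus WT. It was −0.38 (SE 0.221, adjusted p = 0.939) for Kap, −0.16 (SE 0.653, adjusted p = 0.99) for Slco1a1, 0.30 (SE 0.388, adjusted p = 0.95) for Acsm3 and 0.32 (SE 0.259, adjusted p = 0.94) for Odc1. Intervals of 2 SE ran from −0.826 to 0.0587, −1.47 to 1.15, −0.479 to 1.07 and −0.194 to 0.843, so a difference inside those bounds could not be resolved with these libraries. For Slco1a1, DESeq2 with its replaced count gave −3.81 (adjusted p = 0.515), outside that interval. Without the 8 libraries the differences were −0.71 for Kap, 0.207 for Slco1a1, −0.0908 for Acsm3 and 0.66 for Odc1, and none passed. edgeR called 0% of genes for this difference, with 1079 at an unadjusted p under 0.05 and 0 calls by DESeq2.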

How the data were processed

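Kidney mRNA was sequenced from 31 animals, 1 library each. Per the labels' protocols, RNA with an integrity number over 8 went into KAPA mRNA HyperPrep libraries. The submitters' processing notes name fastp, STAR, featureCounts and the builds GRCm38 and mm10 without versions. The authors deposited expected counts per gene, not normalized, of which 12.52% are not whole numbers, and TPM values, per the file headers and the values. The 31 columns of FPKM, the third value per library in the deposited table, were not used.

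Expected counts were rounded and tested with edgeR 4.0.16 (quasi-likelihood test, TMM scaling, filterByExpr) in R 4.3.3, as 4 group means without covariates over all 31 libraries. Adjustment was Benjamini-Hochberg over 19268 genes within each of 5 contrasts, threshold 0.05. CPM are TMM-scaled, log2 profiles, ratios and relations used a prior count of 2, and fold changes a prior count of 0.125. Ratio intervals hold all shifts that the exact permutation test did not reject at 95%. Scripts were tested on simulated data. Whether libraries came from separate animals rests on the animal numbers in the titles.

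The 4 genes and all lists were chosen with earlier results of these data known. 1 gene of the lists is not reported here. The text gives values for the 4 genes, Nbl1, Lrp2, Slc27a2, up to 6 genes with the smallest p from the lists of androgen-induced genes and of coregulators and chaperones, up to 4 from every other list, and the 5 genes nearest to each of the 4; further names are said to be chosen after their values were seen. Alternatives were DESeq2 1.42.0, limma 3.58.1 (voom, and log2 TPM with a pseudocount of 1 or 0.1), RLE scaling, library totals, other low-count filters, the compared groups alone, the 600 range of animal numbers alone, that range or the library number as covariates, and each library left out. Added after seeing the data were 5 or 8 libraries left out for their Nbl1 level, the 2 cisplatin libraries with the most Lrp2 left out, and DESeq2 without outlier replacement.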

Additional observations from a re-analysis of the deposited data

Results flagged for a closer look

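In 4 of the 16 sets of libraries tested (4 genes in 4 groups), 1 library stood apart, with a gap to the nearest library beyond Dixon's 95% limit. Chance gives that in about 1 set in 20 only where sets are independent and values normally distributed. Here the limit was applied to CPM without logarithms, and genes of the same library are not independent. All flags fell on WT cisplatin 6 and HET PBS 3, each for Slco1a1 and Odc1, so that rate does not apply to them. WT cisplatin 6 held 10.3 CPM of Slco1a1 where the next WT cisplatin library held 3.58, and 416 CPM of Odc1 where the next held 213. It also held the most Lrp2 of its group, 2871 CPM. HET PBS 3 held 757 CPM of Slco1a1 where the next HET PBS library held 564, and 1222 CPM of Odc1 where the next held 973. It also had the highest Kap, 17166 CPM, Acsm3, 1409 CPM, and Lrp2, 7440 CPM, of its group.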

How the results depend on the processing

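Over all results and settings, 56 of 660 recomputed values changed their direction or side of the threshold or moved past 1.5 times, and with 1 library left out 29 of 1581 did. The falls of all 4 genes in both genotypes kept their direction and call under every alternative that gave a value and every library left out. DESeq2 without outlier replacement gave no adjusted p for Slco1a1. Library totals, log2(TPM + 1) and log2(TPM + 0.1) moved the calls to 11831, 12055 and 12096 higher and 2862, 2439 and 2463 lower in WT, and to 11992, 12321 and 12379 higher and 2400, 1983 and 2006 lower in HET. For HET against WT under PBS, DESeq2, with or without outlier replacement, called 5 genes, 3 higher and 2 lower. Leaving out the 5 libraries against their Nbl1 label gave 2, both higher, and turned Kap to 0.0192 and Slco1a1 to 0.0183. Single libraries left out gave 0 to 2 calls, 0 to 2 of them higher, with Kap between −0.0341 and 0.00529 and Slco1a1 between −0.119 and 0.0199. Under cisplatin, voom and the loss of the 5 libraries each gave 2 calls, 1 of them lower. Slco1a1 turned to 1.06 (voom), 0.00839 (TPM + 1), 0.201 (TPM + 0.1) and 0.76 (without the 2 libraries with the most Lrp2), Acsm3 to −0.0273 (without the 5) and Odc1 to −0.0002165 (animals of the 600 range). With single libraries left out, Slco1a1 ranged from −0.52 to 0.69, its upper end without WT cisplatin 6, and Odc1 from −0.00354 to 0.36. The difference between responses turned for Slco1a1 to 1.10 (voom), 0.0691 (TPM + 1), 0.263 (TPM + 0.1) and 0.79 (without the 2), with −0.50 to 0.72 over single libraries, and for Acsm3 to −0.0105 (without the 5). None of these genotype values passed. The ratio of Odc1 to Lrp2 in HET turned to 0.0529 without the 2 libraries, with −0.192 to 0.0529 over single libraries, and −0.124 to 0.0212 in WT. Against Slc27a2 it passed in WT on TPM (−0.33) and without the 2 (−0.37), ranged from −0.39 to −0.22 over single libraries, and in HET turned to 0.0372 without the 2, with −0.156 to 0.0372. The relation of Odc1 to Lrp2 in HET missed the threshold on log2(TPM + 1) (0.767) and without the 5 (0.806). Leaving out 8 libraries that stand apart in Nbl1 gave 3 calls for HET against WT under PBS, 2 higher and 1 lower, with Kap at 0.0190 and Slco1a1 at 0.0182, and 6 under cisplatin, 4 higher and 2 lower, with Slco1a1 at 0.225 and Acsm3 at −0.108. The differences between responses were then 0.207 for Slco1a1 and −0.0908 for Acsm3, and the ratio of Odc1 to Slc27a2 passed in WT (−0.41). DESeq2 gave Slco1a1 the largest moves, −3.84 for HET against WT under cisplatin (adjusted p = 0.1) and −3.81 for the difference between responses (adjusted p = 0.515), with the replaced count. Causes were not tested. No paired analysis was possible because the labels give each animal its own number. Slco1a1 held as few as 5 counts, in WT cisplatin 4.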
